A study of Danio rerio with 24 samples.

Results

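Visual opsins are the light-sensing receptors of rods and cones, and zebrafish carry a set of 9 such genes. They are the rod opsin gene *rho*, the ultraviolet and blue cone opsin genes *opn1sw1* and *opn1sw2*, the green cone opsin genes *opn1mw1*, *opn1mw2*, *opn1mw3*, and *opn1mw4*, and the red cone opsin genes *opn1lw1* and *opn1lw2*. Members were chosen by name, and a probe was taken as theirs when its RefSeq accession in the array design belonged to one of these genes. Of 10536 named genes with a probe, 6 were visual opsin genes, with 10 of the 43603 probes of the array. No probe was matched to *rho*, *opn1sw1*, or *opn1lw1*, which are not analysed here.

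Zebrafish of the AB line were kept from 48 hours post-fertilization (hpf) in mebendazole (MBZ), an anthelmintic benzimidazole that binds tubulin, or in BBC, a related benzimidazole used as the control compound, both at 0.3 μM. BBC differs from MBZ by a butyl ester on its benzoyl ring. Eyes were taken after 12, 24, or 36 h, at 60, 72, and 84 hpf, and RNA from the pooled eyes of many fish was hybridized to each of 24 one-colour arrays, 4 for each of 6 conditions. There was no condition without a compound, so the change with age was measured only in exposed fish.

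In a photoreceptor, an opsin bound to a vitamin A derivative absorbs light and activates the G protein transducin, which in turn switches on a phosphodiesterase and closes cyclic nucleotide-gated channels. Each cone type is defined by its opsin, and the opsin is packed into the discs of the outer segment. In zebrafish, photoreceptors are born and begin to make opsins during the second and the third day of life, while the layers of the retina form. The green opsin genes lie next to each other in the order *opn1mw1*, *opn1mw2*, *opn1mw3*, *opn1mw4*, and *opn1sw2*, *opn1lw1*, and *opn1lw2* also follow each other, in the gene order of the assembly GRCz12tu. Members of each tandem group are closely related in sequence, and whether a probe of one also bound RNA of its neighbour was not tested.

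A level below is the log2 signal of a probe minus the log2 of the 75th percentile over its own array, so that 0 is the level of a bright probe and each unit is a doubling. A level is compared only with the level of the same probe. A signal was called well above background by the flag of the scanner software, and the faintest probe so called on an array lay between -7.28 and -5.53. The 75th percentile of the signal ranged from 437 to 1433 over the arrays, and 66.5% to 76.7% of probes were well above background. Both were read on arrays of which each age was hybridized to 2 slides of its own and had its own scanning day, so age and scanning cannot be told apart. On each slide BBC took the first and the third position and MBZ the second and the fourth, so position and compound cannot be told apart either. The photoreceptor genes *gnat1*, *gnat2*, *pde6a*, *pde6c*, *crx*, *saga*, and *arr3a* were well above background on all 24 arrays. Fish were kept in a light and dark cycle, and the eyes at 72 hpf were taken 12 h apart from those at 60 and 84 hpf, so the phase of the day and age cannot be told apart at 72 hpf. In eye RNA, fewer photoreceptors and less opsin RNA per cell also cannot be told apart.

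The red opsin *opn1lw2* and the blue opsin *opn1sw2* were well above background on all 24 arrays, and so was the green opsin *opn1mw1*, by its brighter probe. The green opsin *opn1mw2*, by its brighter probe, was above background on 2 of 4 BBC arrays and 0 of 4 MBZ arrays at 60 hpf, and on all arrays at 72 and 84 hpf. Its second probe was above background on 1 of 4 arrays of each compound at 60 hpf. *opn1mw3* was above background on 0 of 4 BBC and 1 of 4 MBZ arrays at 60 hpf, on no array at 72 hpf, and on 4 of 4 BBC and 3 of 4 MBZ arrays at 84 hpf. *opn1mw4* was not well above background with either of its 2 probes on any of the 24 arrays, with levels of the 2 probes between -9.45 and -7.56. In all, 5 opsins with 7 probes were therefore tested, and a gene is given below by its brightest probe.

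*opn1lw2* encodes a red cone opsin, and its probe was above background on every array. Its level in BBC replicates 1 to 4 was 0.71, 0.66, 1.16, and 1.45 at 60 hpf, 2.33, 3.13, 3.93, and 2.16 at 72 hpf, and 6.01, 5.98, 6.47, and 5.49 at 84 hpf. In MBZ replicates 1 to 4 it was 0.89, 1.06, 1.03, and 0.98 at 60 hpf, 2.49, 2.98, 3.25, and 3.04 at 72 hpf, and 5.45, 5.79, 6.53, and 5.98 at 84 hpf. The 3 ages did not overlap within either compound, while the MBZ and BBC arrays of each age overlapped. In BBC eyes the rise was 1.89 ± 0.31 (log2, SE, n = 4 against 4) from 60 to 72 hpf and 3.1 ± 0.31 from 72 to 84 hpf, or 3.71-fold and then 8.58-fold. Their adjusted p in the limma fit was 1.33e-05 and 4.83e-08. In MBZ eyes the steps were 1.95 and 3.0.

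The blue opsin *opn1sw2* was dim but detected at 60 hpf. In BBC replicates 1 to 4 its level was -3.41, -3.69, -3.28, and -1.78 at 60 hpf, -0.28, 0.63, 1.41, and -0.28 at 72 hpf, and 4.55, 4.38, 5.17, and 4.0 at 84 hpf. In MBZ replicates 1 to 4 it was -3.16, -3.47, -3.44, and -3.64 at 60 hpf, 0.15, 0.31, 0.82, and 0.71 at 72 hpf, and 3.76, 4.16, 4.95, and 4.59 at 84 hpf. Again no array of one age reached the level of another, and BBC replicate 4 at 60 hpf stood above the other 7 arrays of its age. *opn1sw2* rose by 3.41 ± 0.39 from 60 to 72 hpf and by 4.16 ± 0.39 from 72 to 84 hpf in BBC eyes (limma, adjusted p = 1.17e-07 and 2.15e-08), and by 3.92 and 3.87 in MBZ eyes. The first step in BBC eyes was 10.6-fold and the second 17.8-fold.

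The green opsin *opn1mw1* had the largest rise of the representative opsin probes from 72 to 84 hpf. Its level in BBC replicates 1 to 4 was -5.52, -5.78, -4.44, and -4.21 at 60 hpf, -1.64, -0.80, 0.02, and -1.71 at 72 hpf, and 4.4, 4.36, 4.67, and 3.48 at 84 hpf. In MBZ replicates 1 to 4 it was -5.18, -4.90, -5.45, and -5.15 at 60 hpf, -0.97, -1.16, -0.72, and -0.71 at 72 hpf, and 3.55, 4.1, 4.89, and 4.69 at 84 hpf. The 3 ages did not overlap in either compound, and the MBZ and BBC arrays of each age did. In BBC eyes it rose by 3.95 ± 0.38 and then by 5.26 ± 0.38 (limma, adjusted p = 1.20e-08 and 7.14e-10), and in MBZ eyes by 4.28 and 5.20. The second step of 38.4-fold in BBC eyes was rank 3 among the rises of 31507 probes. A second probe, well above background on 2 of 4 arrays of each compound at 60 hpf, rose by 5.32 ± 0.55 and 5.03 ± 0.55 in BBC eyes. With dim signals raised to the level of the faintest probe well above background on each array, its first step was 4.72, or 26.4-fold in place of 40.0-fold, and was then the smaller of both. Its levels in BBC replicates 1 to 4 were -7.95, -7.27, -5.08, and -4.88 at 60 hpf and -1.49, -0.75, 0.08, and -1.74 at 72 hpf, so both probes had replicates 3 and 4 highest at 60 hpf and replicate 3 highest at 72 hpf. At 84 hpf they were 4.11, 4.08, 4.77, and 3.26.

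*opn1mw2*, the neighbour of *opn1mw1*, was at the edge of detection at 60 hpf. At that age the level of its brighter probe in BBC replicates 1 to 4 was -7.56, -7.62, -6.04, and -5.49, and only the last 2 were well above background. It was -2.96, -2.08, -1.6, and -3.11 at 72 hpf and 1.35, 1.45, 1.69, and 1.32 at 84 hpf. In MBZ replicates 1 to 4 it was -6.93, -6.80, -6.74, and -6.90 at 60 hpf, -2.79, -2.84, -2.58, and -2.40 at 72 hpf, and 0.94, 0.82, 1.91, and 1.33 at 84 hpf. The ages did not overlap in either compound. From 60 to 72 hpf the gene rose 15.6-fold in MBZ eyes with its arrays at 60 hpf set to the faintest probe well above background on each. Some signals not well above background lay above that level, so it is no strict limit. No p is given for this step in either compound, since the probe entered the test through its arrays at 72 and 84 hpf. In BBC eyes the fitted steps were 4.24 ± 0.38 and 3.89 ± 0.38 (limma, adjusted p = 4.44e-08 for the second). The first of them includes 2 arrays below detection, and with dim signals raised it was 3.65, or 12.6-fold in place of 18.9-fold. Its second probe placed more of the rise in the second step, with 2.74 ± 0.46 and 5.67 ± 0.46 in BBC eyes, the latter being rank 2 of all probes. In BBC eyes that probe stood at -4.42, -3.86, -3.42, and -4.79 at 72 hpf and at 1.36, 1.49, 2.45, and 0.87 at 84 hpf. The 2 probes differed in when the rise was steeper and not in its direction.

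*opn1mw3* stayed at the edge of detection. In BBC replicates 1 to 4 its level was -6.98, -8.72, -8.73, and -8.63 at 60 hpf, -7.02, -7.42, -7.80, and -8.04 at 72 hpf, and -6.0, -6.5, -6.0, and -6.11 at 84 hpf. In MBZ replicates 1 to 4 it was -9.16, -8.20, -8.74, and -4.73 at 60 hpf, -8.81, -8.29, -7.76, and -8.34 at 72 hpf, and -7.00, -4.42, -5.82, and -5.12 at 84 hpf. MBZ replicate 4 at 60 hpf was the one array below 84 hpf with a signal well above background. The fitted step from 72 to 84 hpf was 1.42 ± 0.69 in BBC eyes and 2.71 ± 0.69 in MBZ eyes. No p is given for either step, since the probe entered the test only through its BBC arrays at 84 hpf. The step in MBZ eyes was 1.57-fold with its arrays at 72 hpf set to the level of the faintest probe well above background on each. With dim signals raised to that level, the steps were -0.18 and 0.70, neither called, and with normexp background correction they were -2.01, called lower, and -1.41, not called. At 72 hpf no array had a signal well above background, so the raised steps were largely set by the level put in. Whether *opn1mw3* rose from 72 to 84 hpf was not settled. From 60 to 72 hpf no change is given, since 1 of these 16 arrays had a signal well above background. A second probe of *opn1mw3* was well above background only at 84 hpf, on 1 of 4 BBC and 2 of 4 MBZ arrays, and was not tested.

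**Figure D1:**
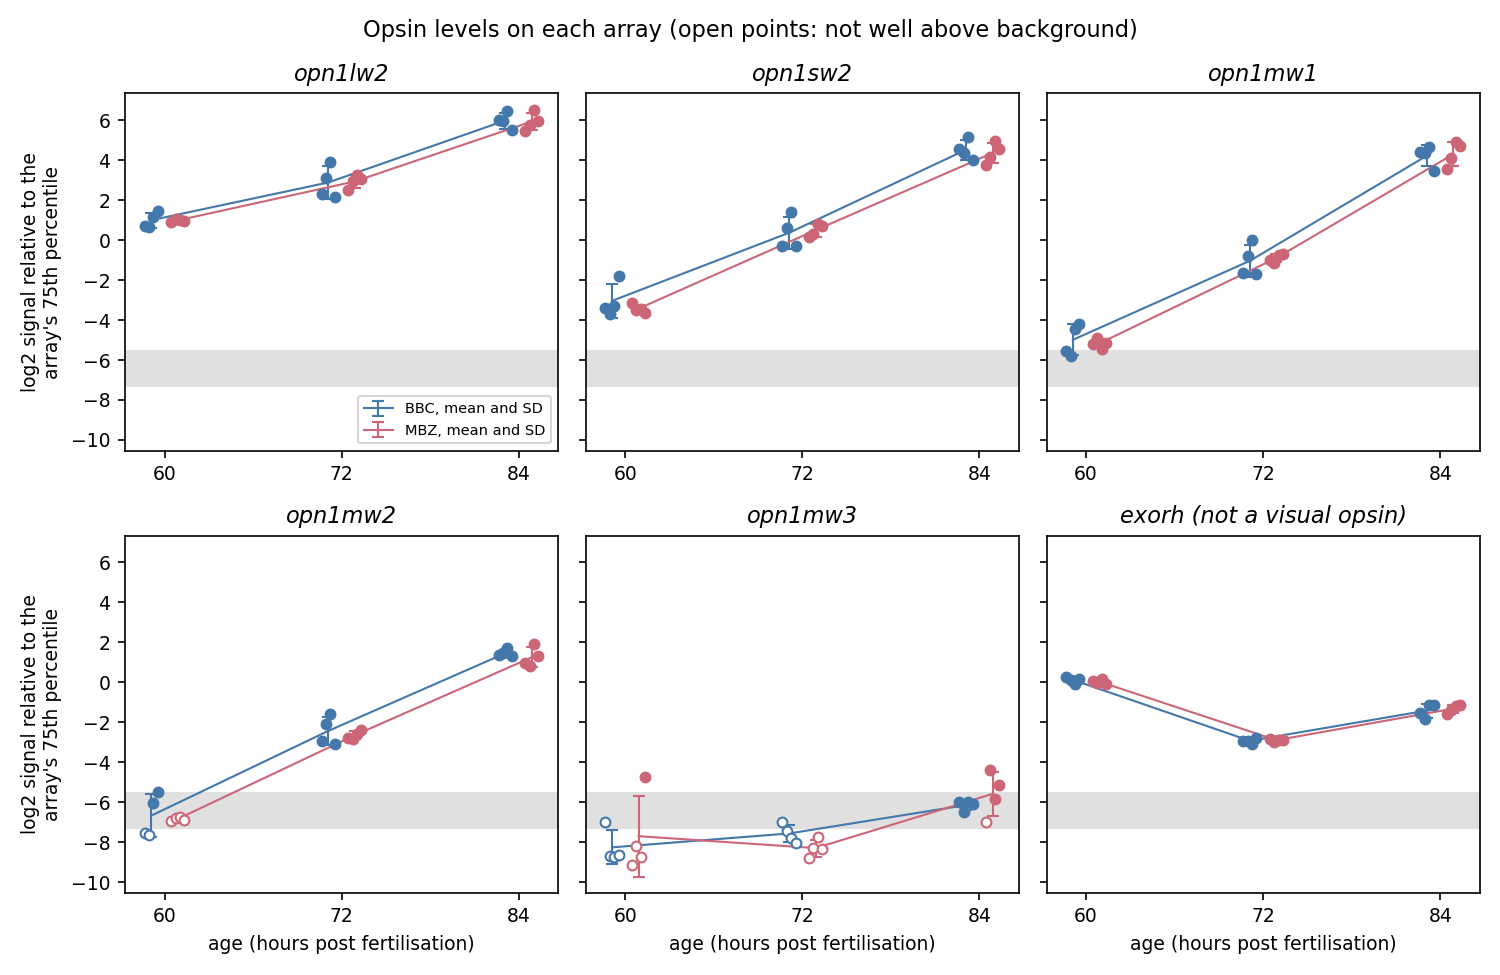
Log2 signal above or below the array's 75th percentile (vertical axis) at 60, 72, and 84 hpf (horizontal axis) for the brightest probe of 5 visual opsin genes and of *exorh*. Each point is 1 array, filled where well above background, lines join the means of 4 arrays with SD bars for BBC (blue) and MBZ (red), and the grey band spans the faintest probes well above background, from -7.28 to -5.53. In both compounds 4 opsins climb with age, *opn1mw3* stays in or near the band, and *exorh* falls and then partly returns.

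Over the whole interval from 60 to 84 hpf in BBC eyes, the fitted rise was 4.99 (95% interval 4.35 to 5.63) for *opn1lw2*, 7.56 (6.75 to 8.37) for *opn1sw2*, and 9.22 (8.42 to 10.0) for *opn1mw1*, the 3 opsins above background on all arrays. In MBZ eyes it was 4.95, 7.79, and 9.48 in the same order. The rise of *opn1mw2*, with dim signals raised, was 7.54 in BBC and 7.86 in MBZ eyes, so its place next to *opn1sw2* was not settled. All 3 opsins above background on every array were called higher in each step and compound at an adjusted p under 0.05. Of all probes, 43.8% were called higher and 29.7% lower from 60 to 72 hpf in BBC eyes, and 23.2% and 34.0% from 72 to 84 hpf. In MBZ eyes the shares were 42.9% and 29.9% in the first step and 24.9% and 36.2% in the second. *opn1mw2* was also called higher in each step, but entered the test through its arrays at 72 and 84 hpf, so its first call is no support. *opn1mw3* entered only through its arrays at 84 hpf, and its call from 72 to 84 hpf in MBZ eyes is not counted. The share of calls that were higher depended on the scaling, being 40.6% from 72 to 84 hpf in BBC eyes, 52.6% with quantile normalization, and 18.9% with normexp, while the median of all probes was -0.13, 0.01, and -0.68. Calls were common among all probes, so ranks of the rises are given too. From 72 to 84 hpf in BBC eyes, *opn1mw1* was rank 3, *opn1sw2* rank 14, *opn1mw2* rank 21, and *opn1lw2* rank 51 among 31507 probes ordered by rise. *opn1mw3* is not ranked, since no array at 72 hpf had its signal well above background. In the earlier step *opn1mw1* was rank 75, *opn1sw2* rank 196, and *opn1lw2* rank 2434, and the others are not ranked because of their dim signals. For *opn1lw2*, *opn1sw2*, and *opn1mw1* the arrays of successive ages were fully apart in both compounds, and so were those of *opn1mw2* from 72 to 84 hpf. The two-sided exact permutation p was 0.0286 each time, the smallest that 4 arrays against 4 can give. How many of all probes had arrays so apart was not counted.

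Opsin levels of MBZ and BBC eyes were then compared at each age. At 60 hpf *opn1mw2* and *opn1mw3*, and at 72 hpf *opn1mw3*, had no array above background in at least 1 compound by the probe tested, and no difference is given for them. None of the 5 opsins was called at 12 h, 24 h, or 36 h at an adjusted p under 0.20, where 0.321%, 0.321%, and 5.62% of all probes were called by limma, and none reached an unadjusted p of 0.05. At 24 h, where replicate numbers were taken to pair the arrays, a fit blocked on those numbers called 188 probes in place of 101. Again no opsin was among them. In the 12 comparisons with signals above background in both compounds, the MBZ and BBC arrays always overlapped, and the two-sided exact permutation p ranged from 0.4 to 0.971. The adjusted p in the limma fit was 0.796 or more.

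Each difference is given with its interval, on the log2 scale as MBZ minus BBC. For *opn1lw2* the difference was -0.01 (95% interval -0.65 to 0.63) at 60 hpf, 0.05 (-0.59 to 0.69) at 72 hpf, and -0.05 (-0.69 to 0.59) at 84 hpf. For *opn1sw2* it was -0.39 (-1.2 to 0.42), 0.13 (-0.68 to 0.94), and -0.16 (-0.97 to 0.65). For *opn1mw1* it was -0.18 (-0.98 to 0.62), 0.15 (-0.66 to 0.95), and 0.08 (-0.72 to 0.88). For these 3 genes no interval reached beyond -1.2 or 0.95, and a difference that misses the threshold does not show that the compounds act alike. The fit pools the spread of the 6 conditions, so a gene's interval has the same width at each age. The SD of *opn1lw2* was 0.08 in MBZ eyes at 60 hpf and 0.81 in BBC eyes at 72 hpf. Intervals may be too narrow where arrays spread more. For *opn1mw2* the difference was -0.22 (-1.01 to 0.58) at 72 hpf and -0.20 (-1.0 to 0.60) at 84 hpf. For *opn1mw3* it was 0.56 (-0.87 to 1.99) at 84 hpf, the widest interval of the 5 genes.

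**Figure D2:**
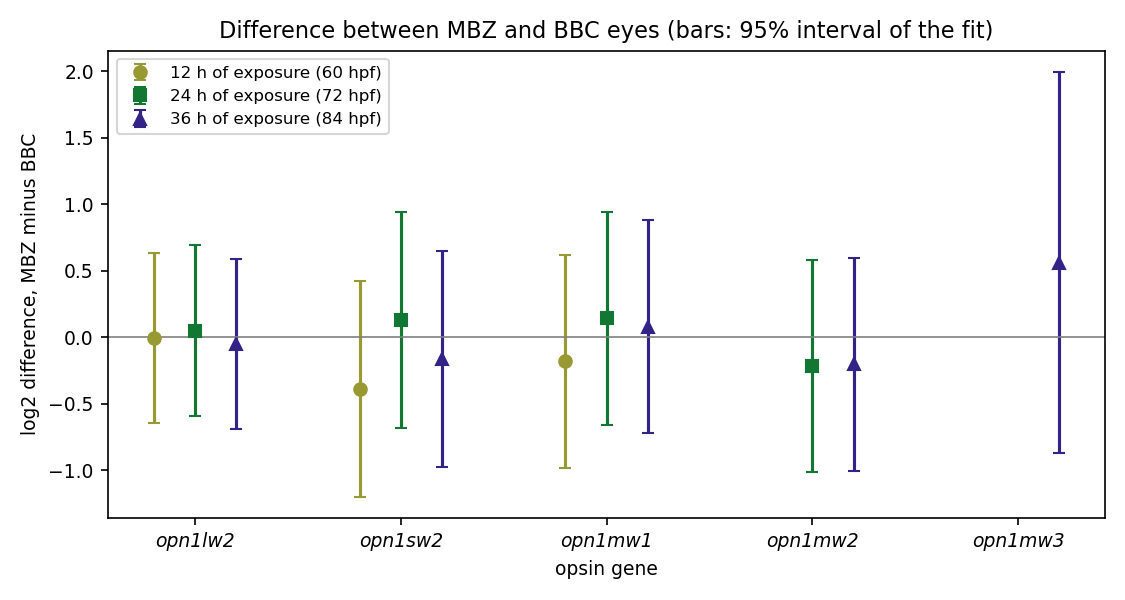
Log2 difference between MBZ and BBC eyes (vertical axis) for 5 opsin genes (horizontal axis) after 12, 24, and 36 h, with the 95% interval of the limma fit as bars. All 12 intervals drawn include 0, the one of *opn1mw3* is the widest, and comparisons with no array above background in a compound are left out.

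A difference between the compounds in the steepness of the rise was not called either. The difference between the MBZ effects at 24 and 12 h, which is the difference between the first steps, was 0.06 for *opn1lw2* (95% interval -0.85 to 0.96), 0.52 for *opn1sw2* (-0.63 to 1.66), and 0.33 for *opn1mw1* (-0.81 to 1.46). None of the 5 opsins was called in this comparison, in which limma called 0% of probes at an adjusted p under 0.20 and 669 probes had an unadjusted p under 0.05. For the second step the difference was -0.10, -0.29, and -0.07 for the same genes and 0.01 for *opn1mw2*, none called, against 0.0635% of all probes. Between 36 and 12 h it was -0.04, 0.23, and 0.26 for the first 3 genes, with 0.362% of probes called and no opsin among them.

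Arrays of one condition differed from each other, and the opsins differed together. In BBC eyes at 72 hpf, replicate 3 stood above the mean of its condition by 1.04 for *opn1lw2*, 1.04 for *opn1sw2*, 1.05 for *opn1mw1*, and 0.83 for *opn1mw2*. Replicate 4 of the same condition stood below it, at -0.72, -0.65, -0.68, and -0.67 in the same order. At 84 hpf, replicate 3 was the highest of its condition in both compounds for all 4 genes, and replicate 4 in BBC eyes and replicate 1 or 2 in MBZ eyes the lowest. At 60 hpf BBC replicates 1 and 2 were below the mean for all 4 genes and replicate 4 above it, although replicates 1 and 2 were below detection for *opn1mw2*. Deviations of the 24 arrays from their condition means correlated between these 4 genes with Pearson's r from 0.80 to 0.90. They correlated with those of *opn1mw3*, mostly below detection, with r from -0.17 to 0.03. These values describe arrays that share RNA, slide, and scaling, and carry no test. The log2 of the summed signal of 14 cone phototransduction genes moved likewise, from 4.99 to 6.07 among the BBC arrays at 72 hpf, replicate 3 being the highest. That of 15 skeletal muscle genes went from 5.78 to 6.62, with the same replicate highest. Such a sum is weighted to the brightest genes of its list. At 72 hpf that array also had the smallest share of probes well above background, 66.5%, and the part of signal depth or muscle RNA in these deviations was not tested.

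**Figure D3:**
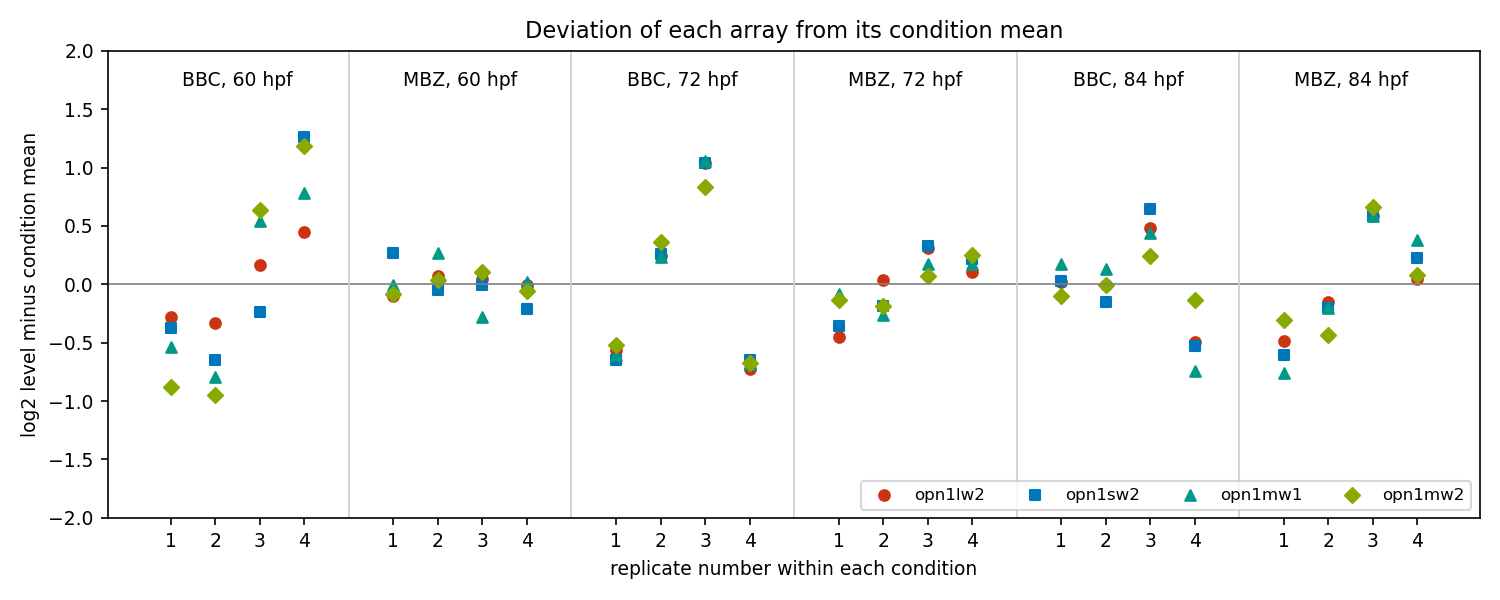
Deviation of each array from the mean of its condition (vertical axis, log2) for 4 opsin genes on the 24 arrays, ordered by condition and replicate number (horizontal axis). The 4 symbols of an array tend to lie together, as for BBC replicate 3 at 72 hpf, between 0.83 and 1.05, and BBC replicate 4 at 72 hpf, between -0.72 and -0.65.

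For the 3 opsins above background on all arrays, the sign of MBZ minus BBC differed between the 2 slides at 60 and 84 hpf. Each value below sets 2 arrays against 2, and the deviations of these 3 genes went together (r from 0.87 to 0.90). Their signs are thus not separate observations, and the part of the slide was not tested. On the slide with replicates 1 and 2 at 60 hpf, MBZ minus BBC was 0.28 for *opn1lw2*, 0.23 for *opn1sw2*, and 0.61 for *opn1mw1*. On the slide with replicates 3 and 4 it was -0.30, -1.01, and -0.97. At 84 hpf the signs were the other way round, with -0.37, -0.51, and -0.55 on the slide of replicates 1 and 2 and 0.27, 0.18, and 0.71 on the slide of replicates 3 and 4. At 72 hpf the values on the 2 slides were 0.01 and 0.10, 0.05 and 0.20, and 0.16 and 0.13. For *opn1mw2* they were -0.29 and -0.14 at 72 hpf and -0.52 and 0.12 at 84 hpf. None of these 4 opsins kept a direction over all 6 slides.

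The genes whose level was most like that of each opsin over the 24 arrays were taken by Pearson's r. Among 9734 other named genes, the closest to *opn1lw2* were *gnb3b*, the cone transducin beta subunit (r = 0.995), *prph2b*, a structural protein of outer segment discs (r = 0.995), and *slc25a3a*, a mitochondrial phosphate carrier (r = 0.994). For *opn1sw2* they were *prph2a* (r = 0.993), the guanylate kinase gene *guk1b* (r = 0.993), and the phosducin gene *pdcb* (r = 0.993). Those of *opn1mw1* were *prph2a*, *prph2b*, and *pdcb* (r = 0.994, 0.994, and 0.993), and those of *opn1mw2* were *prph2a*, *guk1b*, and the rod arrestin gene *saga* (r = 0.994, 0.993, and 0.991). For *opn1mw3* they were *pdk2a*, *nr4a1*, and *dnajb12b*, each with r = 0.78. All arrays of a condition share an age, and these correlations carry no test.

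Genes that work with the opsins also rose with age. Among 13 rod phototransduction genes tested in BBC eyes, 11 were called higher from 60 to 72 hpf and 10 from 72 to 84 hpf, when 2 were called lower, with median changes of 1.72 and 1.5 against 0.20 and -0.13 over all probes. Of 14 cone phototransduction genes, 12 were called higher and 1 lower in each step (medians 1.80 and 2.18), and of 7 outer segment genes, 7 were called higher in each step (medians 2.85 and 1.73). Of all probes, 43.8% were called higher and 29.7% lower in the first step and 23.2% and 34.0% in the second. Most genes that turn opsin activation into a signal thus moved the same way as the opsins. The rod and the cone transducin alpha genes had unlike changes in the first step, though the difference between them was not tested. Both stand outside the rule by which the other genes of the lists were named. *gnat1* of rods changed by -0.13 ± 0.23 from 60 to 72 hpf (adjusted p = 0.613) and rose by 3.87 ± 0.23 from 72 to 84 hpf, and *gnat2* of cones rose by 1.86 ± 0.26 and 3.70 ± 0.26. Of 12 visual cycle genes, which regenerate the light-absorbing vitamin A derivative, 9 were called higher and 3 lower in the first step and 8 higher and 1 lower in the second.

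At 36 h no gene of the rod and cone phototransduction, outer segment, or visual cycle lists was called between MBZ and BBC. Of all probes, 5.62% were called. In the same order, the medians of the lists were -0.15, -0.11, -0.19, and 0.12 against -0.01 over all probes. The largest differences in these lists were those of the recoverin gene *rcvrna* (-0.48, adjusted p = 0.313), the guanylate cyclase activator *guca1g* (-0.34, adjusted p = 0.549), the disc protein *prph2lb* (-0.45, adjusted p = 0.570), and the retinal reductase *dhrs3a* (0.41, adjusted p = 0.217). All of these p-values come from the limma fit over all probes.

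Transcription factors of the photoreceptor lineage set up the cone types and their opsins. Of 23 tested, 5 were called lower in MBZ eyes at 36 h and 0 higher, where 2.44% of all probes were called lower and 3.17% higher, and the median of the list was -0.21. They were *thrb*, the thyroid hormone receptor that red cones need (-0.51 ± 0.17, adjusted p = 0.158), the retinal homeobox gene *rx2* (-0.39 ± 0.11, adjusted p = 0.0816), and *six6a* (-0.32 ± 0.10, adjusted p = 0.118). The other two were *six6b*, which in zebrafish acts on blue and green opsin genes (-0.30 ± 0.10, adjusted p = 0.181), and *tbx2a*, named here after its value was seen. The red, blue, and green opsins themselves differed at that age by -0.05, -0.16, 0.08, and -0.20, none called. With the 8 arrays of that age fitted alone, 0 of the 23 factors were called, and with normexp background correction also 0. Leaving out 1 array of that age gave 9 lower, with 1 more called higher, without BBC replicate 3, 1 (*nr2f1b*) without BBC replicate 4, 2 without BBC replicate 1, BBC replicate 2, or MBZ replicate 3, and 3 without MBZ replicate 2. It also gave 3 without BBC replicate 1, MBZ replicate 2, or MBZ replicate 3 at 60 hpf, or BBC replicate 2 at 72 hpf. Markers of other eye cells moved at the same age, with 9 of 18 lens genes and 5 of 10 ganglion cell genes called lower and 1 of 10 ganglion cell genes and 1 of 8 pigment epithelium genes higher. The log2 of the summed lens signal was 9.72 to 10.2 in BBC and 9.02 to 9.45 in MBZ eyes. That of the ganglion cell signal was 5.31 to 5.56 in BBC and 4.84 to 5.20 in MBZ eyes. The part of lens and ganglion cells in the values of the transcription factors was not tested.

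**Figure D4:**
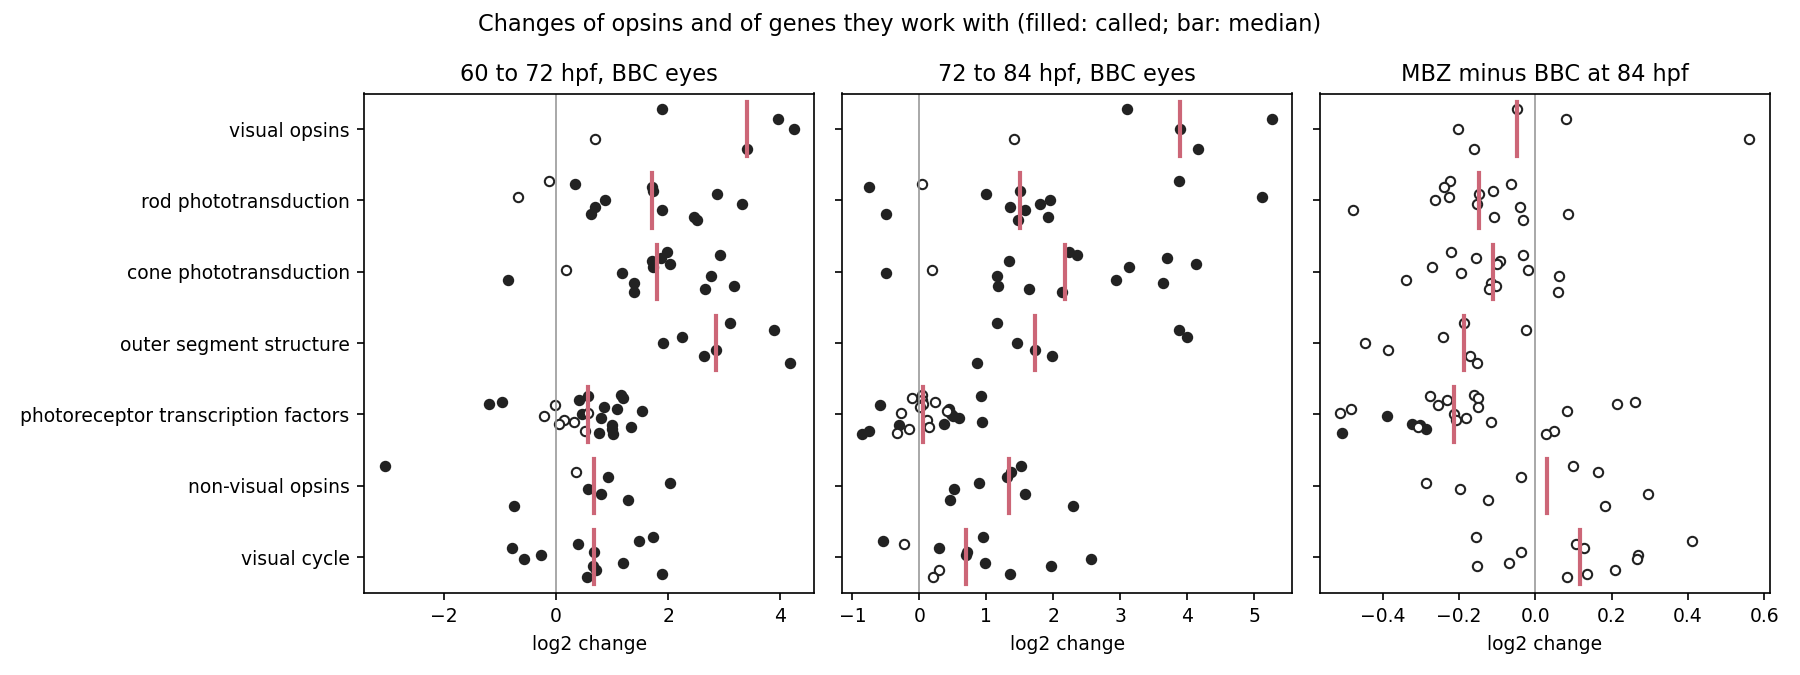
Log2 change (horizontal axis) of each tested gene of 7 lists (rows) in BBC eyes from 60 to 72 hpf and from 72 to 84 hpf, and between MBZ and BBC eyes at 84 hpf. Filled points were called, and the red bar is the median of the list, which for the 5 visual opsins tested, dim ones included, is 3.41 and 3.89 in the first 2 panels and -0.05 in the third.

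Of 8 non-visual opsins tested, 5 were called higher and 2 lower from 60 to 72 hpf in BBC eyes, where 43.8% and 29.7% of all probes were. From 72 to 84 hpf, 8 were called higher in BBC eyes, where 23.2% of all probes were. In MBZ eyes 5 were called higher in that step, where 24.9% of all probes were. The median rise of the 8 genes in that step was 1.34 in BBC and 1.48 in MBZ eyes. Between the MBZ effects at 36 and 24 h, 0 of the 8 were called, against 0.0635% of all probes. One of the 2 called lower in BBC eyes was *exorh*, the pineal relative of the rod opsin, which was well above background on all 24 arrays. Its level in BBC replicates 1 to 4 was 0.28, 0.13, -0.06, and 0.14 at 60 hpf, -2.95, -2.92, -3.07, and -2.80 at 72 hpf, and -1.53, -1.86, -1.12, and -1.16 at 84 hpf. It was thus lowest at 72 hpf, where the 4 cone opsins lay between their early and late levels, and no arrays of different ages overlapped. In BBC eyes it fell by 3.05 from 60 to 72 hpf and rose by 1.52 ± 0.13 from 72 to 84 hpf (limma, adjusted p = 2.20e-13 and 8.15e-09), and in MBZ eyes it changed by -2.93 and 1.58. MBZ and BBC eyes differed by -0.09, 0.03, and 0.10 at the 3 ages, none called. *bsx*, a pineal transcription factor, was also well above background on all 24 arrays. *exorh* and *bsx* were among 4 pineal genes tested, so the summed signal of the 4 is not separate from *exorh*. In BBC eyes the log2 of this sum was 2.11 to 2.35, 1.44 to 1.64, and 1.48 to 1.75 at the 3 ages. From 60 to 72 hpf, 0 of the 4 were called higher and 2 lower, where 43.8% and 29.7% of all probes were. From 72 to 84 hpf, 2 were called higher and 2 lower, where 23.2% and 34.0% of all probes were. Whether pineal tissue was carried with the eyes was not tested.

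Markers of other tissues moved with age too. Of 15 skeletal muscle genes, 13 were called higher from 60 to 72 hpf and 7 from 72 to 84 hpf in BBC eyes, against 43.8% and 23.2% of all probes. The log2 of their summed signal was 3.27 to 4.84, 5.78 to 6.62, and 6.91 to 7.59 at the 3 ages. In MBZ eyes it was 4.41 to 5.74, 5.94 to 6.32, and 6.30 to 7.19. The part of such a shift in composition in the opsin levels was not tested.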

How the data were processed

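The authors scanned 24 one-colour arrays, and the deposited scanner output gives intensities (background-corrected, median pixel, and local background signal) not yet normalized between arrays. Also deposited by the authors were log2 values normalized with Agi4x44PreProcess, whose options are not given in the sources used here. The labels name Feature Extraction 8.0 and the file headers 10.1.1.1. Spots of a probe were averaged as log2 background-corrected signal minus the log2 75th percentile of the array, uneven spots left out. Tested were probes that all 4 arrays of some condition flagged as positive and well above background (31507 of 43603, with 31506 at 36 h). Accessions were matched to RefSeq genes of GRCz12tu (15163 probes). All arrays entered 1 fit with limma 3.58.1 in R 4.3.3 (18 residual degrees of freedom) with Benjamini-Hochberg adjustment over all probes, called at an adjusted p under 0.20 between compounds and under 0.05 between ages.

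Single values had two-sided exact permutation tests (70 splits). Replicates were treated as independent samples in the main fit, and precision is limited by their number. In data simulated for MBZ against BBC at 36 h over 30173 probes, 82% of changes of 1 and 94% of changes of 2 (log2) were recovered, with 37 false calls, which describes all probes and not the opsins. A gene was represented by its brightest tested probe, the 3 genes most alike by Pearson's r were named, and of each list up to 4 genes, called ones first, by the size of their difference at 36 h. Members and lists were chosen with earlier results of these data known. Correlations of deviations between same-numbered MBZ and BBC arrays were above 0.1 in 1, 4, and 2 of 4 pairs at 12, 24, and 36 h, so replicate numbers were taken to pair the samples at 24 h and not at 12 or 36 h. Same-numbered arrays also shared a slide, and the part of the slide in these correlations was not tested. Alternatives were other scalings and filters, a stricter threshold, gene means, replicate and slide blocks, fits of the compared arrays alone, and leaving out each array.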

Additional observations from a re-analysis of the deposited data

Results flagged for a closer look

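Each of 30 groups of 4 arrays (5 opsins in 6 conditions) was checked for an array far from the others, and chance alone marks about 1 in 20 such groups. One stood apart. The level of *opn1mw3* in BBC replicate 1 at 60 hpf was -6.98, and the nearest of the other 3 arrays was at -8.63, a gap of 0.943 of the whole range. None of these 4 signals was well above background. No difference between the MBZ effects at 2 ages was called for an opsin.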

How the results depend on the processing

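Under 12 planned settings, an added one, and the omission of each of 24 arrays, each where it applied, *opn1lw2*, *opn1sw2*, *opn1mw1*, and, where tested, *opn1mw2* were called higher in every age step, and 0 opsins were called between compounds or between MBZ effects. The calls of *opn1mw2* from 60 to 72 hpf are no support, since its probe entered the test through its arrays at 72 and 84 hpf. The lowest step of *opn1lw2* from 60 to 72 hpf in BBC eyes was 0.91. With all 4 spot flags required on all arrays, only *opn1lw2*, *opn1sw2*, and *opn1mw1* were tested. All 3 were called from 72 to 84 hpf in MBZ eyes, where the main fit called 5, with *opn1mw3*, which is not counted. *opn1mw3* was the exception. Its calls are no support, since in the main fit its probe entered only through its BBC arrays at 84 hpf. With normexp its step from 72 to 84 hpf reversed to -2.01 in BBC and -1.41 in MBZ eyes, and its first step in BBC eyes was called at 2.25. Its later step in BBC eyes was also called with quantile normalization, with only the compared arrays, and without MBZ replicate 4 at 60 hpf. In MBZ eyes it was lost with the authors' values (0.26) and with dim signals raised to the detection limit (0.70), which was chosen after seeing the data. The cause was not tested.

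Transcription factors called lower at 36 h numbered 5, 0 with normexp, with the stricter threshold, and with the compared arrays alone, 2 with no filter, 8 with the authors' values, 10 with a replicate block within each age, and 1 to 9 without single arrays. With that block, and without BBC replicate 3, 1 more was called higher. The replicate block changed no opsin call. Probes called at 36 h numbered 1770, against 3710 with that block, 332 with the stricter threshold, 141 with the compared arrays alone, 15 with normexp, and 636 to 3634 without single arrays. Between the MBZ effects at 24 and 12 h, 0 probes were called, and 0 to 5 under the other settings. Signals near background limit *opn1mw3* and *opn1mw2* at 60 hpf.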

Other observations

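Genes that handle the opsins' vitamin A derivative were on the array too, and the genes in this paragraph were named after their values were seen. In BBC eyes *rpe65a*, the isomerase of the pigment epithelium, rose by 1.90 ± 0.19 (log2, SE) from 60 to 72 hpf and by 1.35 ± 0.19 from 72 to 84 hpf. *rdh5*, a retinol dehydrogenase of the pigment epithelium, was called lower in the first step (-0.57) and higher in the second (2.56). *rrh*, a pigment epithelium opsin, was also called lower and then higher, at -0.75 and 2.30. Among the other non-visual opsins, the melanopsin gene *opn4.1* rose by 0.92 and 1.31 and *rgra*, a retinal G protein-coupled receptor, by 0.79 and 1.58. All 8 non-visual opsins tested and all 12 visual cycle genes were uncalled between MBZ and BBC at each exposure time. Of all probes, only 0.321%, 0.321%, and 5.62% were called at 12, 24, and 36 h. In the list of rod phototransduction genes, the receptor kinase gene *grk1b* changed by -0.67 (adjusted p = 0.111, limma) and then rose by 5.12 ± 0.37. Its relative *grk1a* rose in both steps, by 2.87 in the first. Whether rods or cones made the RNA of these kinases was not tested.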
